A study of Mus musculus with 6 samples.

Results

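The miR-192, miR-194 and miR-215 entries of a mature miRNA table from mouse kidney inner medulla are described here. Members were chosen by name alone: every row called miR-192, miR-194, miR-194-1, miR-194-2 or miR-215, whichever arm of the hairpin it came from. The rule found 5 of 1081 entries, mmu-miR-192-5p, mmu-miR-192-3p, mmu-miR-194-5p, mmu-miR-194-2-3p and mmu-miR-215-5p. Small RNA was sequenced from 3 DicerAQP2Cre+ mice and from 3 control mice, all at 1 month of age. DicerAQP2Cre+ mice lack Dicer1 in cells that express the water channel AQP2, the principal cells of the collecting duct. The labels give the other animals as controls without naming their alleles, and give no strain. The RNA came from whole inner medulla, so cells in which Dicer1 was not targeted contributed to every library, and fewer cells of a type and less RNA per cell cannot be told apart.

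Dicer cuts precursor hairpins into a duplex of 2 arms, of which the guide is usually kept in an Argonaute protein and pairs with target mRNAs through its seed. miR-192 and miR-194 are transcribed together and are abundant in liver, intestine and kidney, where they are enriched in the cortex and in proximal tubule cells. In cultured mouse mesangial cells miR-192 is induced by TGF-beta and represses the E-box repressors Zeb1 and Zeb2, while in human tumour cells miR-192, miR-194 and miR-215 are induced by p53. The name tubule miRNAs could not be checked here, because these libraries hold no other kidney zone.

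The sequences show which reads can be assigned to which locus. They are RefSeq sequences of GRCm38.p6, and all 5 members matched by name. Each is written 5′ to 3′ with the seed, bases 2 to 8, in capitals.

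mmu-miR-192-5p: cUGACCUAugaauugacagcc

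mmu-miR-215-5p: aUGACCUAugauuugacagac

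mmu-miR-194-5p: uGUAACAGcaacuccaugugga

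mmu-miR-192-3p: cUGCCAAUuccauaggucacag

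mmu-miR-194-2-3p: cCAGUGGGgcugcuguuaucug

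mmu-miR-194-1-3p: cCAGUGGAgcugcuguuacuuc

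miR-192-5p and miR-215-5p share the seed UGACCUA, which no other of the 1679 mature mouse names in the RefSeq table has, and they differ at 3 of 21 positions (C1A, A12U and C20A, with the base of miR-192-5p given before the position, counted from the 5′ end, and that of miR-215-5p after it). miR-194-5p has a seed of its own, GUAACAG, found in no other mature name of that table. The genes form 2 pairs in GRCm38. Mir194-2 and Mir192 lie 115 bases apart on the plus strand of chromosome 19, close to Atg2a and outside any other annotated gene. Mir194-1 and Mir215 lie 195 bases apart on the plus strand of chromosome 1, inside the noncoding gene 2010103J01Rik and on the strand opposite to Iars2, the mitochondrial isoleucyl-tRNA synthetase gene. Mir194-1 lies in an intron and Mir215 overlaps an exon of 2010103J01Rik.

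The 2 miR-194 hairpins are shown because they yield the same guide, miR-194-5p, which is in capitals.

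Mir194-1: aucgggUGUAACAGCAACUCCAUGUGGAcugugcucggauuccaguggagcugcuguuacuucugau

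Mir194-2: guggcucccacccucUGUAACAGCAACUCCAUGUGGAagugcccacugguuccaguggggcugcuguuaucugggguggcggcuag

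A read of miR-194-5p can therefore come from either chromosome. The 3p arms differ at 4 of 22 positions (G8A, U19C, C20U and G22C, from miR-194-2-3p to miR-194-1-3p), so miR-194-2-3p marks the chromosome 19 hairpin that neighbours Mir192. No value for miR-194-1-3p or miR-215-3p was analysed here.

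Library totals ranged from 2934851 to 7614853 reads assigned to miRNAs, the lowest in DicerAQP2Cre+ replicate 2. Values are normalized reads, that is, reads divided by a size factor per library. Over the 461 entries with a mean of at least 5 normalized reads, DicerAQP2Cre+ replicate 3 stood apart on the second principal component (23.1% of the variance), with a score of -12.5 against 5.10 and 2.28 in the other DicerAQP2Cre+ libraries and 0.87 to 2.94 in controls. Results for the members are therefore given with and without it. The small RNA libraries do not measure the Dicer1 transcript, so the deletion was not checked per animal.

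Levels of the 5 members kept the same order in all 6 libraries: miR-192-5p was the highest, followed by miR-194-5p, miR-194-2-3p, miR-192-3p and miR-215-5p. The mature RNAs are 21 or 22 bases long, so reads are compared between them without a length correction, although capture by the library kit can differ between sequences. miR-192-5p ranked 91 to 121 among all entries in DicerAQP2Cre+ libraries and 89 to 93 in control libraries. Together the 5 members took 0.0115%, 0.0151% and 0.0197% of the reads of DicerAQP2Cre+ replicates 1 to 3, against 0.0262%, 0.0268% and 0.0275% in the controls. Their summed share averaged 0.0154 ± 0.00412% in DicerAQP2Cre+ libraries and 0.0268 ± 0.000623% in control libraries (SD, n = 3 each). Most of this sum was miR-192-5p, at 76.2% to 93.8% in DicerAQP2Cre+ libraries and 77.9% to 84% in controls. Shares set libraries to equal totals, a scaling under which the median log2 fold change over all tested entries was -0.21. How many entries separate by share was not counted, so the gap between groups is not read as a result about the members.

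**Figure D1:**
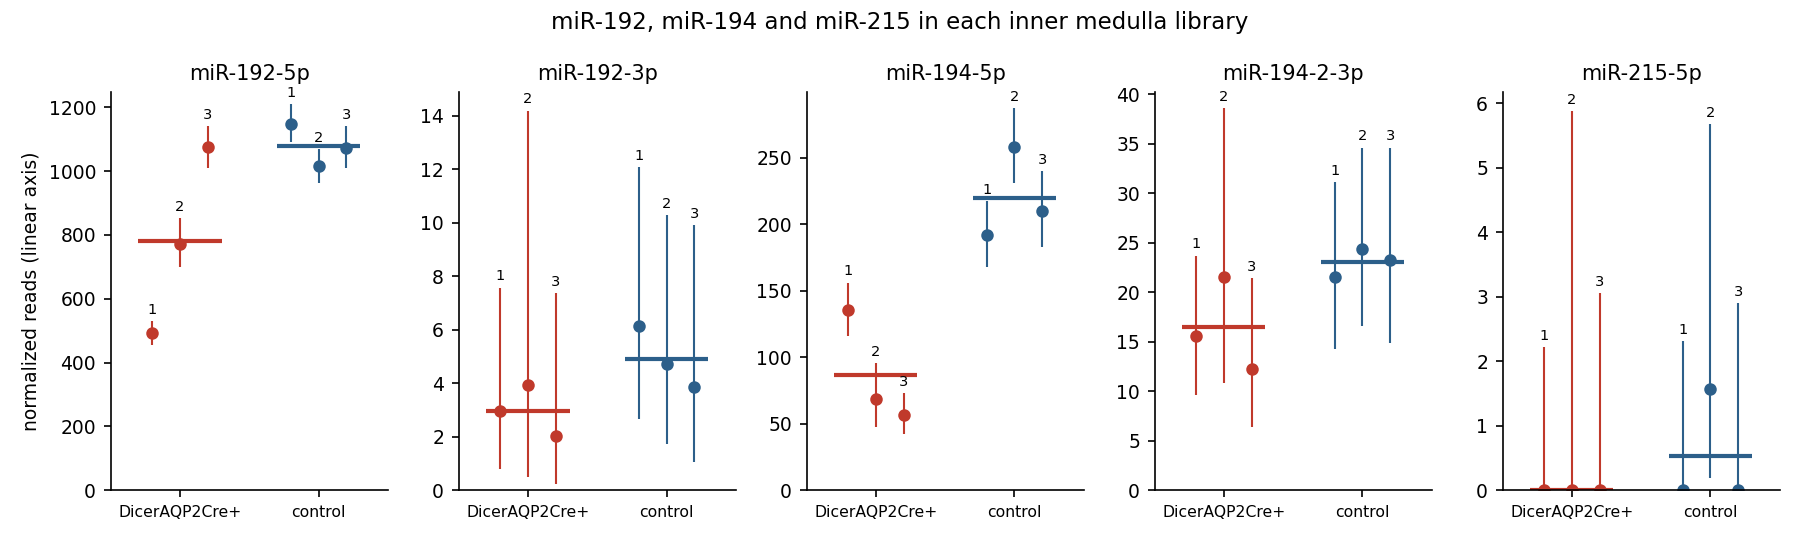
Normalized reads (linear axes, which differ between panels) of each member in the DicerAQP2Cre+ and control libraries. Points are libraries numbered by replicate, thin bars are exact 95% Poisson intervals of the read count (up to 3 reads where the count is 0), and thick bars are group means; miR-194-5p is the member whose groups are fully apart, with 56.2 to 135 normalized reads in DicerAQP2Cre+ libraries and 191 to 258 in controls.

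miR-192-5p, the guide arm of Mir192, had 492, 772 and 1075 normalized reads in DicerAQP2Cre+ replicates 1 to 3, against 1149, 1017 and 1072 in control replicates 1 to 3. The controls lay close together, whereas the DicerAQP2Cre+ libraries spread from less than any control to within the control range, which DicerAQP2Cre+ replicate 3 reached. The means were 780 ± 291 in DicerAQP2Cre+ libraries and 1079 ± 66.2 in control libraries (SD, n = 3 each). The log2 fold change was -0.54 ± 0.28 (SE), with a 95% interval of -1.16 to 0.08, and miR-192-5p did not pass the test (limma adjusted p = 0.235). These values rested on 394 to 1052 reads per DicerAQP2Cre+ library and 1108 to 1494 per control library. The Poisson interval of DicerAQP2Cre+ replicate 1, 455 to 531 normalized reads, did not reach that of replicate 2, 698 to 852, and neither reached the 1010 to 1140 of replicate 3, so the spread within the DicerAQP2Cre+ group was wider than counting error.

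The choice of scaling between libraries moved the members alike. As a share of all miRNA reads miR-192-5p stood at 0.00873%, 0.0134% and 0.0185% in DicerAQP2Cre+ libraries, against 0.022%, 0.0209% and 0.0225% in controls. Its groups then did not overlap, and neither did those of miR-194-2-3p and miR-192-3p. How many of all entries do not overlap under this scaling was not counted, so this is not read as a result about the members. With the deposited size factors 18.0% of tested entries did not overlap in the lower direction. With libraries set to equal totals the log2 fold change of miR-192-5p was -0.75 (limma adjusted p = 0.0944), that of miR-194-5p -1.64 and that of miR-194-2-3p -0.70. Under that scaling the median over all tested entries was -0.21, against -0.01 with the deposited size factors. Without DicerAQP2Cre+ replicate 3 miR-192-5p was called lower, with a fold change of -0.81 on the log2 scale (limma adjusted p = 0.0156). That fit called 62 entries lower and 43 higher over the whole table, against 23 and 16 with all 6 libraries, so the gain in calls was not particular to miR-192-5p.

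miR-192-3p, the passenger arm, was found in every library at 2 to 8 reads. It had 2.96, 3.92 and 2.04 normalized reads in DicerAQP2Cre+ libraries, against 6.15, 4.72 and 3.87 in control libraries. The highest DicerAQP2Cre+ value lay just above the lowest control value, and every Poisson interval overlapped every other. Its mean over all libraries, 3.94, was below the filter, so it was not tested in the main fit. Without the filter its log2 fold change was -0.58 ± 0.66 (limma adjusted p = 0.731), so a difference was not detectable at this depth. miR-192-5p made up 99.4%, 99.5% and 99.8% of the reads of both arms in DicerAQP2Cre+ replicates 1 to 3 and 99.5%, 99.5% and 99.6% in the control replicates. Their exact binomial intervals span 98.2% to 100%. The ratio of miR-192-5p to miR-192-3p ran from 166 to 526 in DicerAQP2Cre+ libraries and from 187 to 277 in controls. With 2 to 8 passenger reads per library, whether the arm preference of Mir192 differed cannot be told.

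miR-215-5p, which shares the miR-192-5p seed, was barely detected. It had 0 reads in the 3 DicerAQP2Cre+ libraries, and 0, 2 and 0 reads in control replicates 1 to 3. The 2 reads in control replicate 2 correspond to 1.57 normalized reads. A count of 0 allows up to 3 reads, which is 2.22, 5.88 and 3.06 normalized reads in DicerAQP2Cre+ replicates 1 to 3 and 2.31 and 2.9 in control replicates 1 and 3. The miR-192-5p seed was therefore carried in these libraries almost wholly by miR-192-5p itself, at 492 or more normalized reads in each of them. Such limits and the intervals on reads cover counting error only, since copies made by PCR are not independent molecules.

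miR-194-5p, the guide made by both miR-194 hairpins, had 135, 68.6 and 56.2 normalized reads in DicerAQP2Cre+ replicates 1 to 3, against 191, 258 and 210 in control replicates 1 to 3. All DicerAQP2Cre+ values lay below all control values, and DicerAQP2Cre+ replicate 1 was the nearest to the controls. The means were 86.7 ± 42.6 in DicerAQP2Cre+ libraries and 220 ± 34.2 in control libraries (SD, n = 3 each), 2.53-fold lower. miR-194-5p fell with a log2 fold change of -1.43 ± 0.33 (SE), a 95% interval of -2.16 to -0.69 and a limma adjusted p of 0.0196. The call was lost with the replicate number as a block (adjusted p = 0.0505), with no mean-variance trend (limma adjusted p = 0.0674) and in 4 of the 6 fits that left out a library. The DicerAQP2Cre+ values came from 183, 35 and 55 reads, and the control values from 249, 328 and 217. The upper Poisson bound of the highest DicerAQP2Cre+ library, 156 normalized reads, lay below the lower bound of the lowest control, 168.

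miR-194-2-3p, the passenger arm made by the chromosome 19 hairpin, had 15.5, 21.6 and 12.3 normalized reads in DicerAQP2Cre+ replicates 1 to 3, against 21.5, 24.4 and 23.2 in control replicates 1 to 3. DicerAQP2Cre+ replicate 2 stood level with the lowest control, and the other DicerAQP2Cre+ libraries lay below the controls. The means were 16.5 ± 4.72 in DicerAQP2Cre+ libraries and 23.0 ± 1.43 in control libraries (SD, n = 3 each). The log2 fold change was -0.50 ± 0.34 (SE), with a 95% interval of -1.24 to 0.25, and did not pass (limma adjusted p = 0.361). Without DicerAQP2Cre+ replicate 3 it was -0.31 (limma adjusted p = 0.571). Only 11 to 21 reads per DicerAQP2Cre+ library and 24 to 31 per control library stood behind these values.

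Among the 3 members tested, 1 was called lower, miR-194-5p, and 0 were called higher. Over all 461 tested entries 4.99% were called lower and 3.47% higher at a limma adjusted p under 0.05. With so few members the count of 1 of 3 is not read against that background. miR-194-5p was also the 1 member of the 3 whose groups did not overlap, a pattern in the lower direction that 18.0% of all tested entries had. Its log2 fold change was the 14th lowest of the 461, while those of miR-192-5p and miR-194-2-3p were the 94th and 108th lowest. All 3 had log2 fold changes below 0, as did 50.5% of all tested entries.

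**Figure D2:**
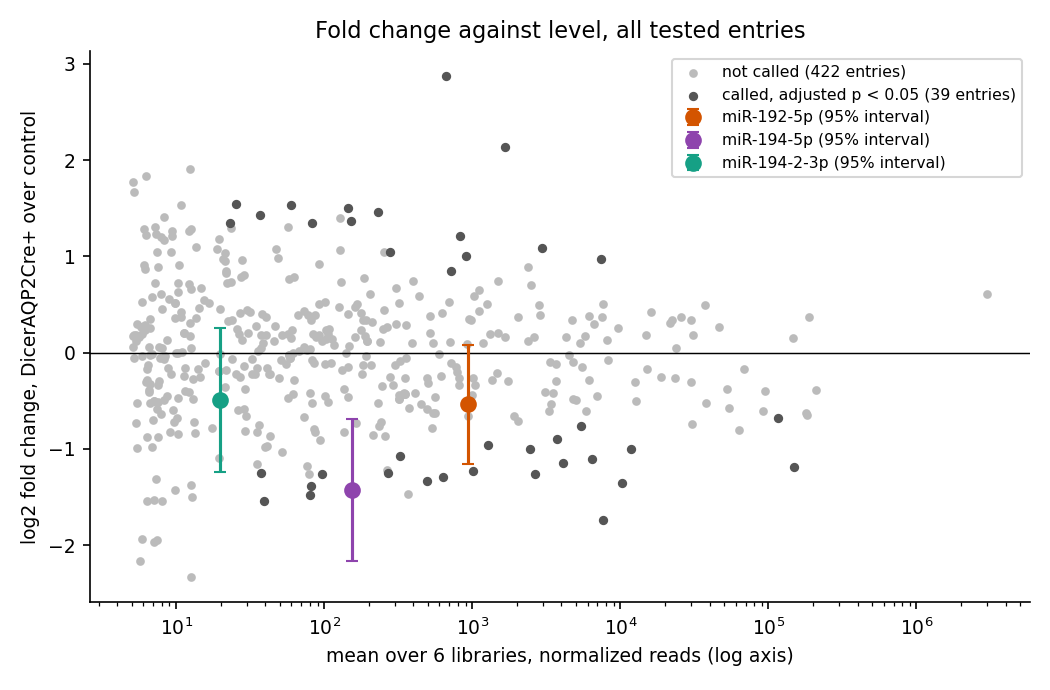
Log2 fold change, DicerAQP2Cre+ over control, against the mean normalized reads over 6 libraries (log axis) for the 461 tested entries. Dark points passed an adjusted p of 0.05, and the coloured points with 95% intervals are the members: the interval of miR-194-5p lies below 0, and those of miR-192-5p and miR-194-2-3p cross 0.

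The guides miR-192-5p and miR-194-5p, where miR-194-5p can come from either chromosome, ranked the DicerAQP2Cre+ libraries in opposite orders. miR-192-5p was lowest in DicerAQP2Cre+ replicate 1 and at the control level in DicerAQP2Cre+ replicate 3, whereas miR-194-5p was highest of its group in DicerAQP2Cre+ replicate 1 and lowest in DicerAQP2Cre+ replicate 3. The ratio of miR-194-5p to miR-192-5p was 0.275, 0.0888 and 0.0523 in DicerAQP2Cre+ replicates 1 to 3, against 0.167, 0.253 and 0.196 in control replicates 1 to 3. DicerAQP2Cre+ replicate 1 thus had the highest ratio of all 6 libraries and the other DicerAQP2Cre+ libraries the lowest, so the groups overlapped. On the log2 scale the ratio averaged -3.20 ± 1.22 in DicerAQP2Cre+ libraries and -2.31 ± 0.31 in controls (SD, n = 3 each). Whether miR-194-5p changed by more than miR-192-5p was not tested.

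The miR-194-5p guide was also set beside the miR-194-2-3p passenger, without a test of whether their fold changes differ. miR-194-5p made up 89.7%, 76.1% and 82.1% of the summed reads of this pair in DicerAQP2Cre+ replicates 1 to 3, against 89.9%, 91.4% and 90.0% in control replicates 1 to 3. DicerAQP2Cre+ replicate 1 was level with the controls, and the lower share was seen in the other DicerAQP2Cre+ libraries. Their exact 95% binomial intervals were 61.2% to 87.4% in DicerAQP2Cre+ replicate 2 and 70.8% to 90.4% in DicerAQP2Cre+ replicate 3, against 85.7% to 93.2%, 88.0% to 94.1% and 85.5% to 93.5% in control replicates 1 to 3. The interval of DicerAQP2Cre+ replicate 3 overlapped all 3 control intervals, and that of DicerAQP2Cre+ replicate 2 overlapped those of control replicates 1 and 3 but not that of control replicate 2. Of the 3 ratios, that of miR-194-2-3p to miR-192-5p, arms of neighbouring hairpins on chromosome 19, had the nearest group means, at log2 values of -5.53 ± 0.80 in DicerAQP2Cre+ libraries and -5.55 ± 0.18 in controls (SD, n = 3 each). Within the DicerAQP2Cre+ group it was -4.99, -5.16 and -6.45, so replicate 3 was below, and the others above, the control range of -5.74 to -5.38.

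**Figure D3:**
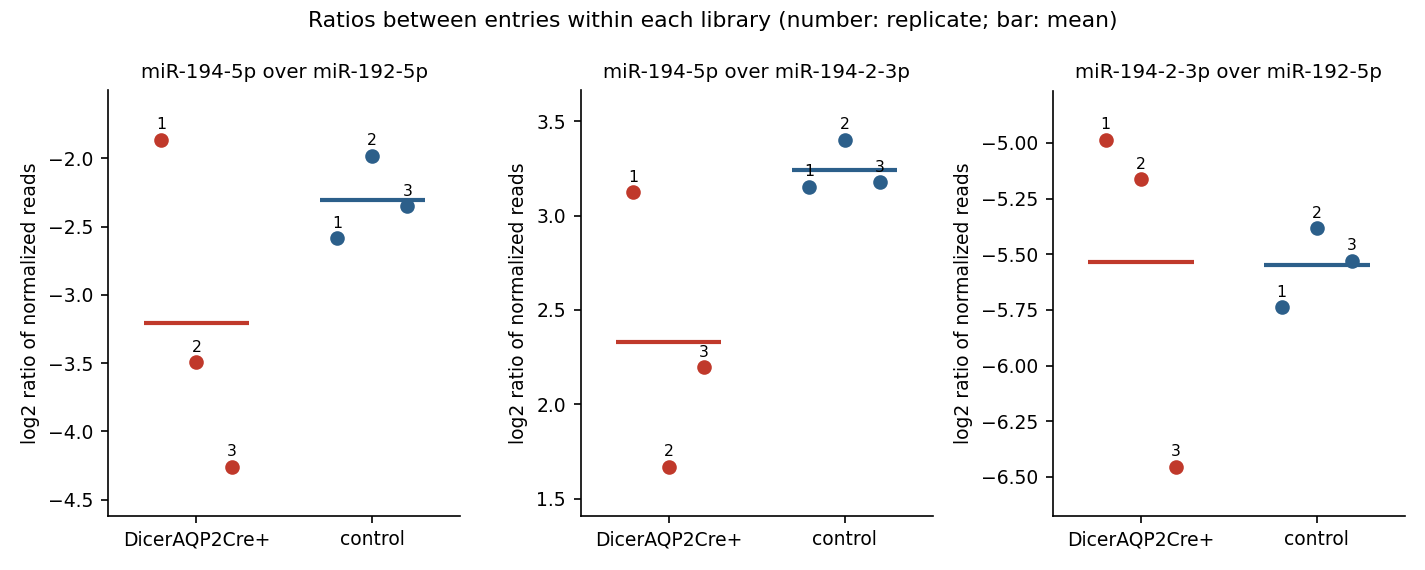
Log2 ratios of normalized reads between members within each library, DicerAQP2Cre+ left and control right; points are libraries numbered by replicate and bars are group means. DicerAQP2Cre+ replicate 1 sits at or above the controls for miR-194-5p over miR-192-5p (-1.86) and next to them for miR-194-5p over miR-194-2-3p (3.12), while replicates 2 and 3 lie lower in both.

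The call for miR-194-5p held without DicerAQP2Cre+ replicate 1 (log2 fold change -1.80, limma adjusted p = 0.0133) and without DicerAQP2Cre+ replicate 3 (-1.17, adjusted p = 0.0096). It was lost without DicerAQP2Cre+ replicate 2 (-1.31, limma adjusted p = 0.0849) and without control replicate 1 (-1.52, adjusted p = 0.0604), replicate 2 (-1.31, adjusted p = 0.111) or replicate 3 (-1.45, adjusted p = 0.0821). The fold change stayed below 0 in each of these fits, which also have fewer libraries. edgeR (-1.26, adjusted p = 0.0356) and DESeq2 (-1.30, adjusted p = 0.00309) on the recovered reads called miR-194-5p lower too. For miR-192-5p the fold change was -0.24 without DicerAQP2Cre+ replicate 1, so that library and replicate 3 move its value in opposite directions.

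**Figure D4:**
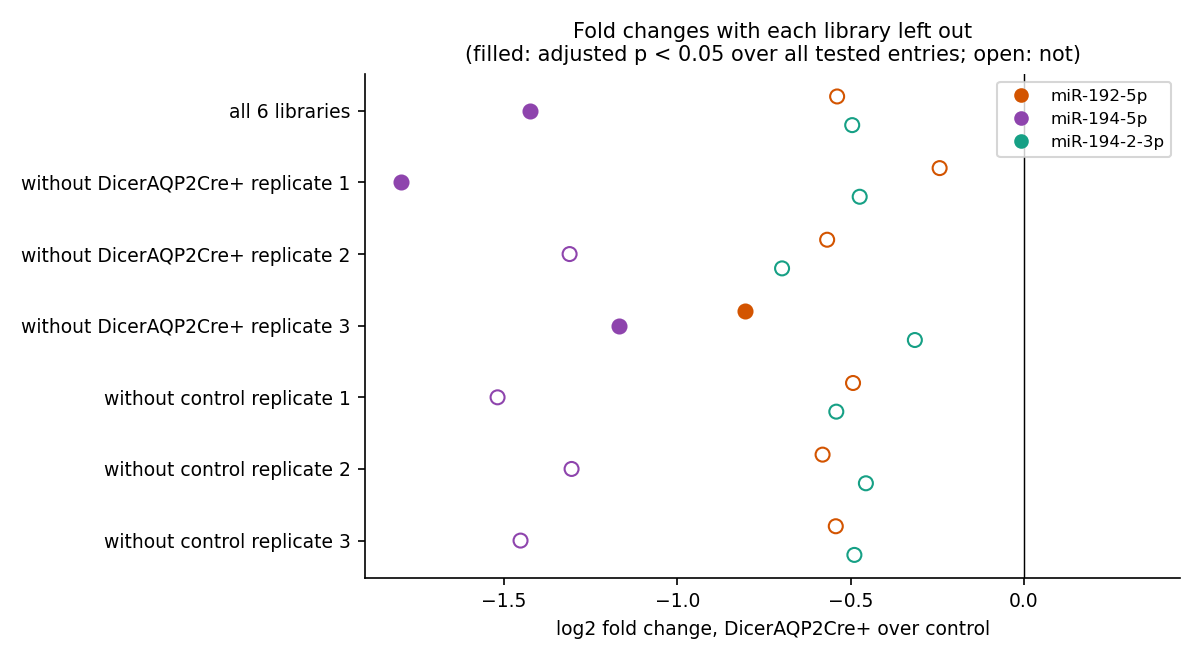
Log2 fold change, DicerAQP2Cre+ over control, of the 3 tested members with all 6 libraries and with each library left out in turn. Filled points passed an adjusted p of 0.05. miR-194-5p stays between -1.80 and -1.17, and miR-192-5p passes when DicerAQP2Cre+ replicate 3 is left out. That fit called 62 entries lower over the whole table, against 23 with all 6 libraries.

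Other miRNAs linked to these members or to other cell types are given as lists, 7 of whose tested entries stand in more than 1 list. Of other tubule and hepatocyte miRNAs (miR-204, miR-211, miR-802 and miR-122), 1 of 5 entries was tested and 0 were called. miR-204-5p, an abundant miRNA of kidney epithelium, had 465, 462 and 646 normalized reads in DicerAQP2Cre+ libraries, against 378, 347 and 312 in controls. Every DicerAQP2Cre+ library lay above the controls, but how many of all tested entries separate in this direction was not counted. At a fold change of 0.59 ± 0.23 (log2, SE) the entry missed the threshold (limma adjusted p = 0.13, with 1 of 1 under 0.05 before adjustment). edgeR and DESeq2 also called 0 of this list. miR-122-5p, the main miRNA of hepatocytes, was near the floor, with 1.48 to 7.84 normalized reads in DicerAQP2Cre+ libraries and 3.85 to 4.72 in controls. The summed level of the members was 646 to 1145 normalized reads in DicerAQP2Cre+ libraries and 1306 to 1368 in controls, whereas that of this list was 469 to 656 in DicerAQP2Cre+ libraries and 319 to 388 in controls.

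Of the miRNAs placed downstream of or beside miR-192 in mouse mesangial cells (miR-200b, miR-200c, miR-216a, miR-216b, miR-217, miR-21a and miR-377), 6 of 8 entries were tested, 2 fell and 0 rose, and the median log2 fold change was -0.19. Those that fell were miR-200b-3p, at 4236 ± 1625 normalized reads in DicerAQP2Cre+ libraries and 8698 ± 172 in controls, and miR-200c-3p, which changed by -0.90 on the log2 scale (limma adjusted p = 0.0174). Both target Zeb1 and Zeb2. miR-21a-5p, induced by TGF-beta, differed by 0.20 ± 0.38 on the log2 scale and was not called.

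Of the p53-induced miRNAs other than the members (miR-34a, miR-34b, miR-34c, miR-107, miR-143 and miR-145a), 9 of 12 entries were tested, 1 rose and 0 fell, and the median log2 fold change was 0.74, against -0.54 for the 3 tested members and -0.01 for all tested entries. The 1 that rose was miR-145a-5p, also an abundant smooth muscle miRNA, at 4024 ± 764 normalized reads in DicerAQP2Cre+ libraries and 1925 ± 564 in controls (limma adjusted p = 0.0196). The most abundant entry, miR-143-3p, differed by 0.31 on the log2 scale and was not called (limma adjusted p = 0.315). For miR-34a-5p and miR-34c-5p, direct p53 targets, the log2 differences were -0.61 and 0.75 (limma adjusted p = 0.137 and 0.0565), and limma called neither. For miR-34c-5p both edgeR (adjusted p = 0.047) and DESeq2 (adjusted p = 0.00737) passed the threshold. Over this list edgeR called 2 entries and DESeq2 3.

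Markers of the epithelium and of other cell types are set beside the members, and their part in these results was not tested. Tested miR-200 family entries all had log2 fold changes below 0, as the members did, and tested stromal entries all above 0. In the epithelial miR-200 family 8 of 9 entries were tested and 5 fell, namely the 3p arms of miR-141, miR-429, miR-200a, miR-200b and miR-200c, with a list median of -0.93 on the log2 scale. The summed level was 7648 to 11584 normalized reads in DicerAQP2Cre+ libraries and 17621 to 18745 in controls. Of 9 stromal entries 8 were tested and 2 rose, miR-214-3p and miR-145a-5p. The summed level of the stromal list was 27753 to 40290 in DicerAQP2Cre+ libraries and 23401 to 24725 in controls. Most of that sum was miR-143-3p, which was not called, at 20899 to 28838 in DicerAQP2Cre+ libraries and 18042 to 20001 in controls. Of the 2 endothelial, 4 leukocyte and 4 erythroid entries tested, 0 were called by limma, 0 by edgeR and 0 by DESeq2, and 0 had an unadjusted limma p under 0.05. Their most abundant entries, miR-126a-3p, miR-150-5p and the shared entry of miR-486a-5p and miR-486b-5p, differed by -0.15, 0.34 and -0.40 on the log2 scale. Their summed levels overlapped between genotypes, at 830 to 1245 in DicerAQP2Cre+ libraries and 961 to 1229 in controls for the endothelial list. The leukocyte sum was 15965 to 38140 in DicerAQP2Cre+ libraries and 12213 to 35248 in controls, and the erythroid sum 66121 to 98866 in DicerAQP2Cre+ libraries and 84722 to 147341 in controls. Nearly all of the leukocyte sum was miR-150-5p, and nearly all of the erythroid sum was the shared miR-486 entry. The erythroid entry miR-451a averaged 21.2 normalized reads over all libraries, and miR-144-5p and miR-144-3p 1.55 and 1.31. miR-486a-3p and miR-486b-3p had the same value in each library, so they are not separate observations. Of the leukocyte markers, miR-142a-3p averaged 0.12 normalized reads over all libraries and its other arm, miR-142a-5p, 6.16. miR-223-3p averaged 8.26, differed by 1.17 on the log2 scale and was not called (limma adjusted p = 0.185).

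**Figure D5:**
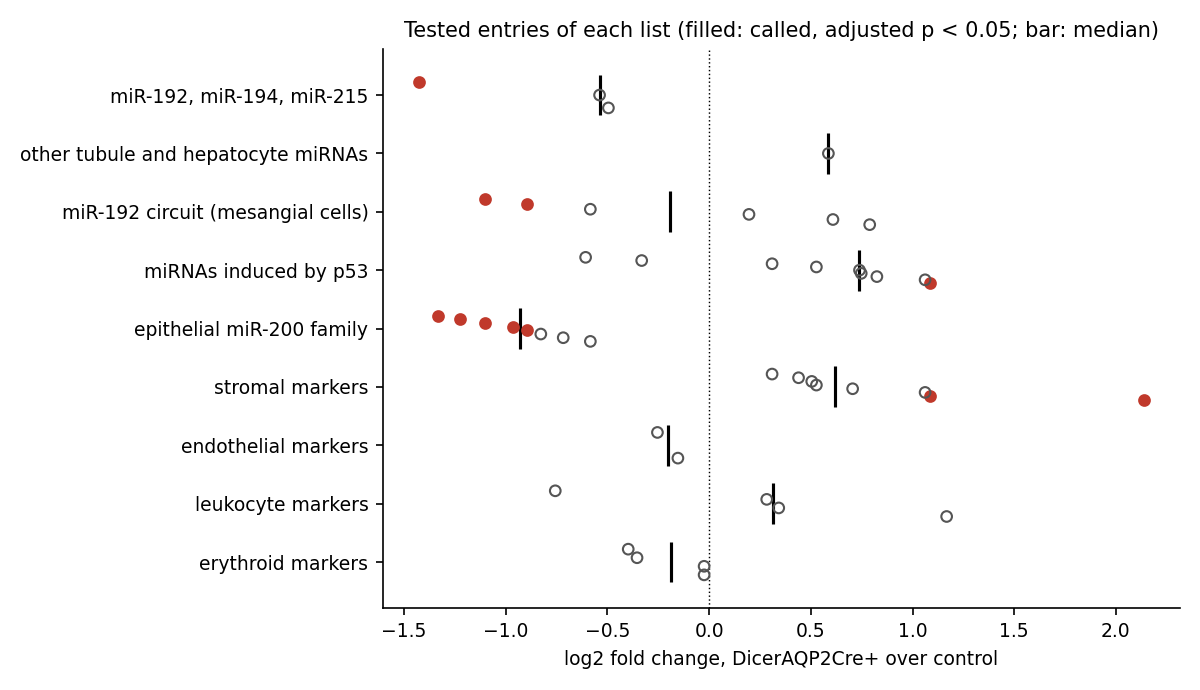
Log2 fold change, DicerAQP2Cre+ over control, of each tested entry in the lists; filled points passed an adjusted p of 0.05, open points did not, and bars are list medians. The members (top) have a median of -0.54, the miR-200 family -0.93 and the stromal entries 0.62.

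Profiles over the 6 libraries were compared by the root-mean-square difference between log2 values after each profile was centred on its own mean. The entry nearest to miR-194-5p was miR-141-3p, a miR-200 family guide, at a difference of 0.20 log2 units. miR-141-3p had 425, 253 and 199 normalized reads in DicerAQP2Cre+ replicates 1 to 3, against 781, 684 and 644 in control replicates 1 to 3, and so, like miR-194-5p, was highest in DicerAQP2Cre+ replicate 1 within its group. Next came miR-218-1-3p (0.24), miR-331-5p (0.30), miR-872-5p (0.32) and miR-3076-3p (0.32). Of these 5, miR-141-3p, miR-872-5p and miR-3076-3p were called lower, with log2 fold changes of -1.33, -1.39 and -1.55 (limma adjusted p = 0.0169, 0.0162 and 0.0148). Over all tested entries 4.99% were called lower. The 5 were chosen for profiles like that of miR-194-5p over both groups, so their lower values follow from the choice.

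miR-192-5p had other neighbours. The nearest was miR-193a-5p (0.15), with 79.2, 106 and 193 normalized reads in DicerAQP2Cre+ replicates 1 to 3, against 155, 171 and 160 in control replicates 1 to 3, again lowest in DicerAQP2Cre+ replicate 1 and highest of that group in replicate 3. It was followed by miR-30c-2-3p (0.17), miR-1843b-3p (0.18), miR-200a-5p (0.18) and miR-6956-3p (0.20), and none of these 5 passed the limma test (adjusted p = 0.372, 0.186, 0.304, 0.111 and 0.213 in the order named). miR-192-5p itself was only the 198th nearest entry to miR-194-5p, at 0.85 log2 units, and miR-194-2-3p was the 71st, at 0.63. All profiles share the 6 libraries and their depth, so these distances describe the libraries and carry no test. Neighbours were chosen by these same values, so their order of libraries and their calls are not results of their own.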

How the data were processed

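The deposited signal values are the authors' read counts per mature miRNA divided by a size factor per library. FastQC 0.11.3, DESeq2 and the build mm9 come from the submitters' processing notes, and no source used here names an aligner, a counter or an annotation release. Whole reads were recovered from 100% of values (tolerance 0.01 read). Columns labelled CTR match the control titles. Columns labelled CK were read as conditional knockout, that is DicerAQP2Cre+, by replicate number; this is an inference, and every direction rests on it. Per the labels' protocols, RNA was extracted with a column kit and prepared with the TruSeq small-RNA protocol. The design text counts separate mice.

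The test was limma 3.58.1 (R 4.3.3), two-sided, on log2(value + 1), which understates changes of low entries, with a mean-variance trend and no replicate block. It covered 461 of 1081 entries with a mean of at least 5; 620 were below. Calls needed an adjusted p under 0.05 (Benjamini-Hochberg over all tested entries). The fit was run on simulated counts with the same spread setting for every entry and no outlying library. That run checks the code and does not measure error rates in these libraries. edgeR 4.0.16 and DESeq2 1.42.0 on the recovered reads, other pseudocounts, filters and scalings, a replicate block and leaving out each library were alternatives. Libraries of a group differed by more than sampling noise. Named miRNAs are all members, the 5 nearest profiles of miR-192-5p and miR-194-5p, and the most abundant and called entries of lists; others (miR-122-5p, miR-34c-5p, miR-142a-3p) were chosen after their values were seen. Members and lists were chosen with earlier results of these data known. Sequences and gene positions are from RefSeq and GENCODE tables of GRCm38, which is not the authors' build, so no coordinates are printed.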

Additional observations from a re-analysis of the deposited data

How the results depend on the processing

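All 3 tested members kept log2 fold changes below 0 in every alternative that tested them. miR-194-5p lost its call with no trend (-1.43, limma adjusted p = 0.0674) and with the replicate block (-1.43, adjusted p = 0.0505); without single libraries it ranged from -1.80 to -1.17. miR-192-5p ranged from -0.81 to -0.24 and miR-194-2-3p from -0.70 to -0.31 without single libraries. Over all entries, 23 lower and 16 higher calls became 48 lower with equal totals, 29 higher with DESeq2, 11 lower and 7 higher with no trend, and 0 to 62 lower and 0 to 43 higher without single libraries. The counts of 0 in limma came from leaving out control replicate 2, where 43 lower and 40 higher entries had p under 0.05 before adjustment, edgeR called 0 in either direction, and DESeq2 called 15 lower and 13 higher. They also came from leaving out control replicate 3, with 47 lower and 45 higher before adjustment, 0 in either direction by edgeR, and 20 lower and 17 higher by DESeq2. These fits have fewer libraries. Same-numbered libraries had correlations of their deviations across entries of -0.06, 0.01 and 0.06, against -0.09 to 0.10 for other pairs. With 3 libraries per group this cannot show whether the numbers pair the mice. The block gave 18 lower and 14 higher calls. The mean filter of 50 left miR-194-2-3p untested. miR-194-5p rested on 35 and 55 reads in DicerAQP2Cre+ replicates 2 and 3, and the 3p arms on fewer. The cause of the lost calls was not tested.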
